A study of Mus musculus with 21 samples.

Results

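Fatty acid uptake and activation is represented here by 9 genes whose products bring fatty acids from the blood into heart muscle and prepare them for oxidation. They are Lpl, Gpihbp1, Vldlr, Cd36, Slc27a1, Acsl1, Fabp3, Fabp4 and Fabp5, found by name among the 19096 genes of the deposited matrix. All 9 were present and all 9 passed the filter on low counts that left 15216 genes for testing. RNA was sequenced from the hearts of 21 male C57BL/6NJ mice, aged 8 to 10 weeks when they were assigned at random to chow or to a high-fat diet (HFD) with 60% of its energy as fat. After 10 weeks of diet the animals were randomized again to an adeno-associated virus carrying renin (Renin) or to a control, and hearts were frozen 6 weeks after injection behind the eye. The sample titles give the controls as novirus, while the design text names a null vector. The 4 groups held 4 chow novirus, 6 chow Renin, 6 HFD novirus and 5 HFD Renin hearts. The promoter that drives renin and the hour of collection are not given in the sources used here. In the study's design HFD Renin stands for heart failure with preserved ejection fraction (HFpEF), and either treatment alone is one of its parts.

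In the heart, lipoprotein lipase (Lpl) frees fatty acids from triglyceride-rich lipoproteins at the capillary wall, where Gpihbp1 on endothelial cells holds the enzyme in place. The freed fatty acids cross the endothelium and the muscle membrane with the help of proteins such as Cd36 and Slc27a1 (FATP1), and are carried in the cytosol by fatty acid binding proteins. Acsl1 couples them to coenzyme A, which commits them to oxidation or storage. The receptor Vldlr binds triglyceride-rich lipoproteins. Fabp3 is the form of heart and skeletal muscle, while Fabp4 and Fabp5 are known from fat cells, macrophages and capillary endothelium.

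Library totals over the genes tested ran from 18565483 to 29004667 estimated reads, and the 4 chow novirus libraries, with at most 21216113, were all shallower than the others. Cardiomyocyte markers were abundant in every library, with a summed level of 53280 to 73660 counts-per-million (CPM) over 10 genes. In 5 libraries, replicate 3 of chow novirus, replicates 1 and 3 of chow Renin, replicate 3 of HFD novirus and replicate 3 of HFD Renin, the mean log2 CPM of the 6 of 7 listed atrial genes that passed the filter on low counts was 6.27 or more, against at most 3.17 elsewhere. HFD novirus replicate 6 had the highest capillary endothelium score (mean log2 CPM of 15 markers), at 6.53 against 6.20 or less in the other libraries. The same library also had the highest fibroblast score (6.60) and macrophage score (3.93) and the lowest cardiomyocyte score (11.7), and the part of these in its values was not tested. Among 10 fat cell markers the summed level lay between 19.9 and 53.2 CPM, of which Cidea gave 18.1 CPM or more in every library. Adipoq was at 0 in 6 libraries and at most 2.60 CPM, Lep was at 0 in 15 and Ucp1 in 17, while Cfd reached 16.9, Cidec 5.40 and Plin1 4.57 CPM. The fat cell score (mean log2 CPM of the 6 of these markers that passed the filter on low counts) was 0.78 to 2.77 in the 5 libraries high in atrial transcripts and -0.18 or less in the other 16. In whole-heart RNA a lower value can stand for fewer cells of a type or for less RNA per cell, and these cannot be told apart.

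Compared per unit length, Fabp3 was by far the most abundant of the 9 transcripts. Its level was 3536 ± 469 transcripts-per-million (TPM, SD over all 21 libraries), 23rd among the genes tested. Lpl followed at 669 ± 111 TPM, then Cd36 at 505 ± 50.9 TPM and Fabp4 at 432 ± 67.7 TPM. Acsl1 stood at 189 ± 21.1 TPM, Slc27a1 at 102 ± 20.02 TPM and Gpihbp1 at 78.2 ± 13.6 TPM. Vldlr at 27.4 ± 4.00 TPM and Fabp5 at 25.0 ± 4.49 TPM were the lowest and differed by less than their spread. Within groups the members varied about as much as other genes. Cd36 was the steadiest, with a within-group SD of 0.11 on the log2 CPM scale, and Slc27a1 the most variable, with 0.26, against a median of 0.19 over all genes tested.

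**Figure D1:**
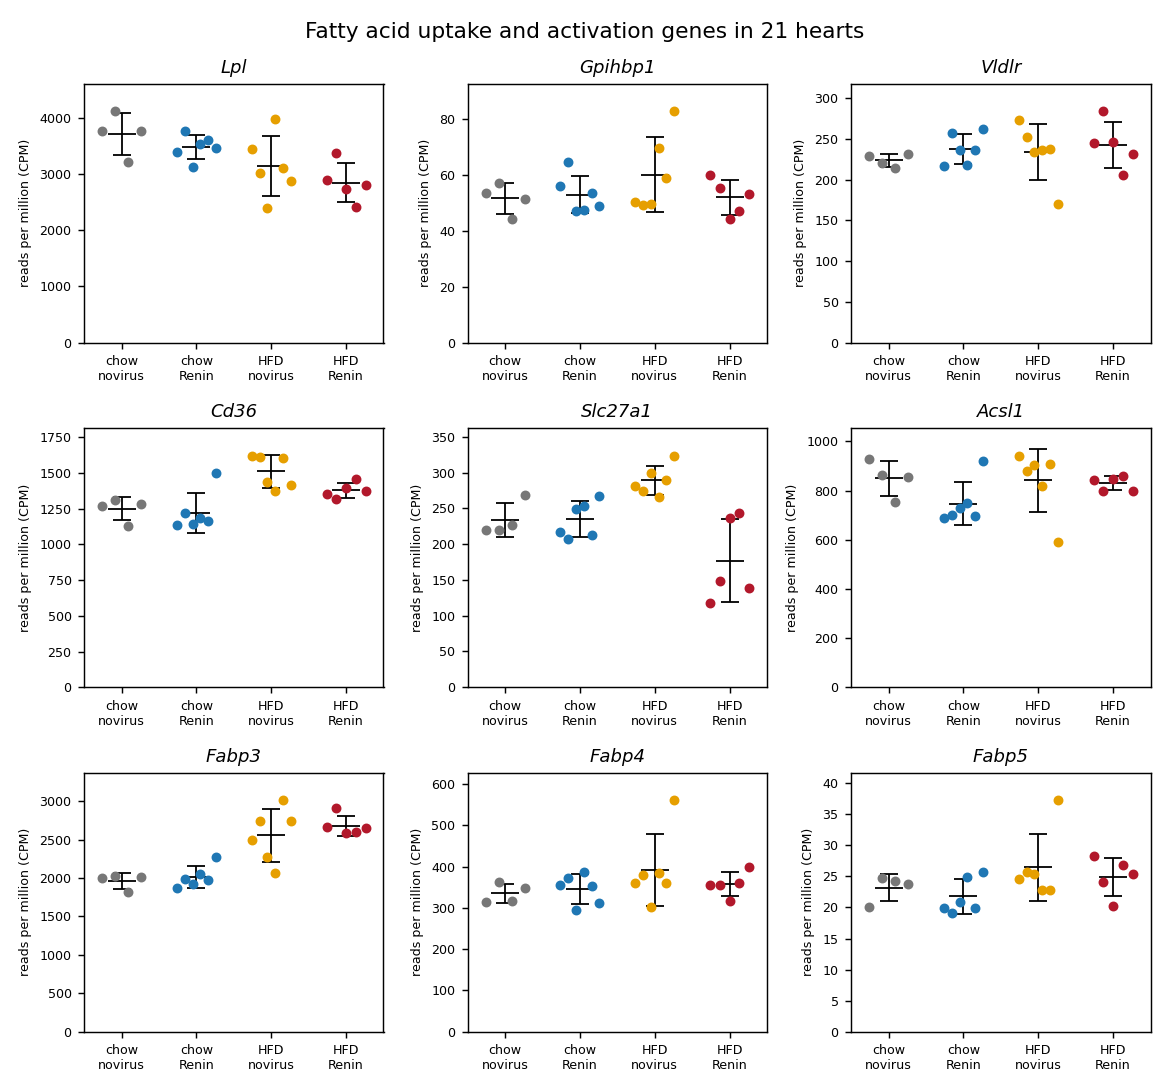
Level in CPM (linear axis from 0) of the 9 genes in each of the 21 hearts, by group. Points are libraries, the long dash is the group mean and the whiskers are 1 SD. The Fabp3 points of both HFD groups lie above those of chow novirus, and the 5 HFD Renin libraries of Slc27a1 spread from 118 to 243 CPM.

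Of the 9 genes, Fabp3 was higher and Lpl lower in hearts with both treatments than in chow novirus hearts, and Slc27a1 was lower in HFD Renin than in HFD novirus hearts. In HFD Renin against chow novirus, 2 of 9 members passed an adjusted p of 0.05 (edgeR), where 8.29% of all genes tested did so. In chow Renin against chow novirus no member passed with edgeR, none at an unadjusted p under 0.05 and none with DESeq2. Of all genes, 13.5% passed there and 25.1% lay under 0.05 before adjustment. In HFD novirus against chow novirus no member passed with edgeR, where 0.0657% of all genes did, while 3 members had an unadjusted p under 0.05, against 11% of all genes, and 2 (Fabp3 and Cd36) passed with DESeq2, which called 117 genes over all. HFD Renin against HFD novirus had 1 member that passed, against 11.1% of all genes. HFD Renin against chow Renin had 3 members that passed, against 22.6% of all genes. For the difference between the renin effects on the 2 diets 1 member passed, against 10.4% of all genes. The median log2 fold change of the 9 was 0.22 in HFD novirus against chow novirus, with 7 of 9 higher, against 0.0089 over all genes. It was -0.13 in HFD Renin against HFD novirus, with 7 of 9 lower, against -0.0064 over all genes. These comparisons share control libraries, and nothing particular to the 9 genes is read from the shares.

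**Figure D2:**
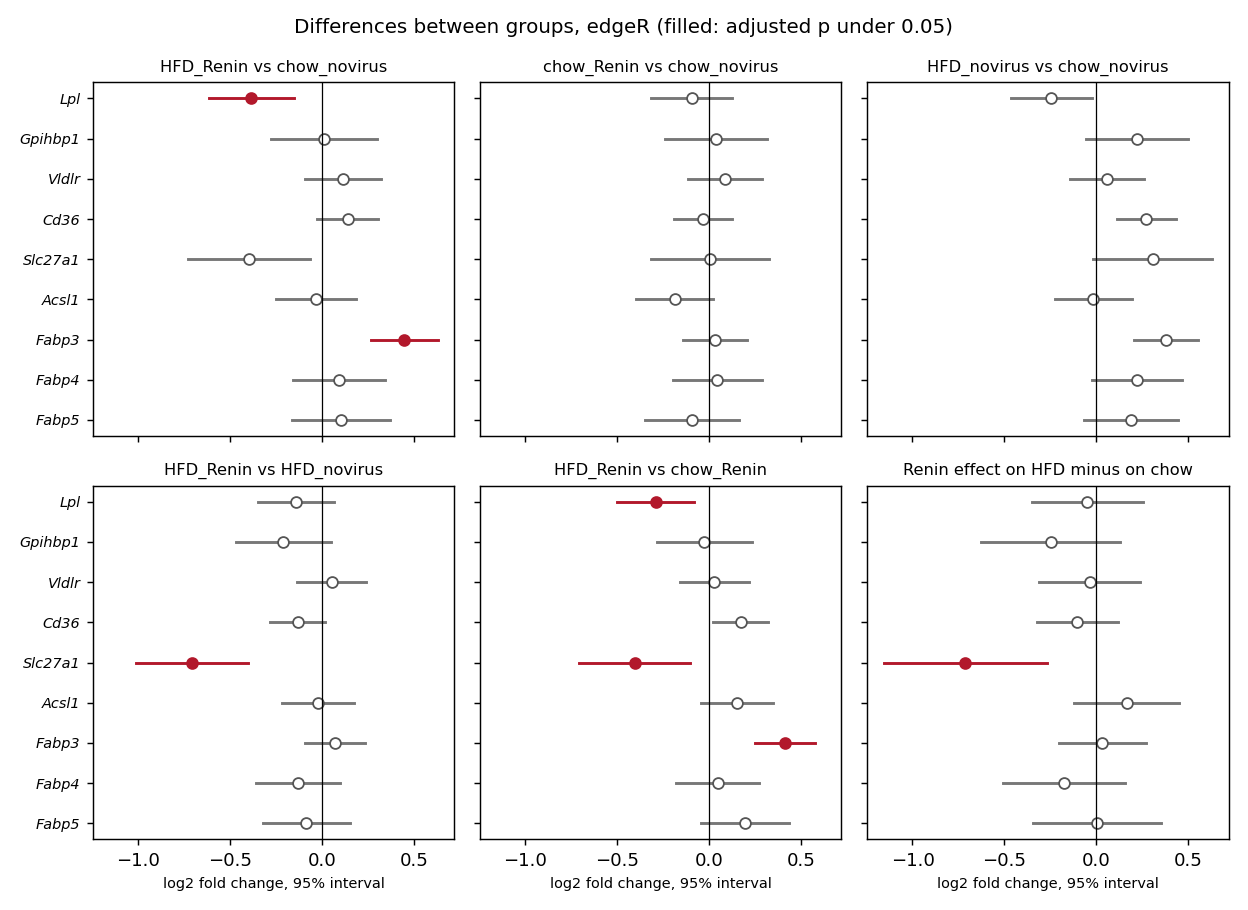
Log2 fold change (points) with its 95% interval (lines) for the 9 genes in the 5 comparisons and for the difference between the renin effects. Filled red points have an adjusted p under 0.05 with edgeR. Fabp3 and Lpl are filled in both comparisons of HFD Renin with a chow group, and Slc27a1 in HFD Renin against HFD novirus, against chow Renin and in the difference.

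Lpl, the lipase itself (chr8:68880491-68907448, GRCm38, plus strand), had its highest group mean in CPM in chow novirus and its lowest in HFD Renin. In TPM this order did not hold. The TPM means were 753.7 in chow novirus, 762.9 in chow Renin, 586.1 in HFD novirus and 586.5 in HFD Renin. The 4 chow novirus hearts measured 3769, 4110, 3208 and 3765 CPM. The 6 chow Renin hearts ranged from 3114 to 3759 with a median of 3498 CPM, and the 6 HFD novirus hearts from 2396 to 3982 with a median of 3062 CPM. The 5 HFD Renin hearts measured 2892, 3364, 2737, 2415 and 2809 CPM. Of the HFD Renin values, 4 lay below every chow novirus value, and the highest, 3364 CPM, lay above the lowest control, 3208 CPM, so the groups overlapped. In TPM they did not, with HFD Renin at 662.9 or less and chow novirus at 679.2 or more. How many of all genes lacked overlap in TPM was not counted, so nothing is read from this.
Lpl fell by 0.38 on the log2 scale in HFD Renin against chow novirus (SE 0.11, 95% interval -0.62 to -0.15, edgeR adjusted p = 0.0334). It fell by 0.29 against chow Renin (SE 0.10, adjusted p = 0.0412). Its difference was -0.24 in HFD novirus (adjusted p = 0.411) and -0.10 in chow Renin (adjusted p = 0.655), both against chow novirus. Against chow novirus the adjusted p was between 0.0536 and 0.111 when any of chow novirus 1, 2 and 4 or HFD Renin 1, 3, 4 and 5 was left out. Against chow Renin the call was kept in 3 of 11 such fits, and the adjusted p rose as high as 0.106. Without the 5 libraries high in atrial transcripts the values were -0.45 (adjusted p = 0.0191) and -0.35 (adjusted p = 0.0262). With a clock score, taken from circadian genes and described with Slc27a1, as a covariate the Lpl difference was -0.41 against chow novirus (adjusted p = 0.572) and -0.30 against chow Renin (adjusted p = 0.0618). In the comparison with chow novirus 5 of 10 cardiomyocyte markers also fell (Myh6, Tnnt2, Tnni3, Myl2 and Pln, from -0.48 to -0.32), beside 8.29% of all genes called in either direction. Of the other 5, 4 had positive values of at most 0.18 and 1 a negative value, none of them called. The part of these markers in the Lpl value was not tested. Within groups, the deviations of Lpl and of the cardiomyocyte score correlated with Pearson r = 0.575 (permutation p = 0.0328, adjusted 0.133 over 36 relations) and Spearman rho = 0.588 (p = 0.0106, adjusted 0.176). Without the 2 farthest libraries r was 0.530.

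Nearly all Lpl was 1 transcript. Lpl-201 made up 99.2% of the gene's TPM on average. Lpl-203, annotated as a target of nonsense-mediated decay, stood at 49.6 TPM in HFD Renin replicate 1, which was 7.48% of the gene, and at 4.02 TPM or less in the other 20 libraries.

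Gpihbp1, the endothelial anchor of Lpl, gave no difference that passed. Group means were 51.7 ± 5.45 CPM in chow novirus (n = 4), 53.0 ± 6.69 in chow Renin (n = 6), 60.2 ± 13.6 in HFD novirus (n = 6) and 52.1 ± 6.35 in HFD Renin (n = 5). The highest value, 82.8 CPM, belonged to HFD novirus replicate 6, the library with the highest endothelial, fibroblast and macrophage scores. The 95% interval for HFD Renin against chow novirus ran from -0.28 to 0.30 on the log2 scale.

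Vldlr, the lipoprotein receptor, passed in no comparison. Its group means were 223.9 ± 8.00 CPM in chow novirus (n = 4), 237.8 ± 18.9 in chow Renin (n = 6), 233.7 ± 34.5 in HFD novirus (n = 6) and 242.4 ± 28.3 in HFD Renin (n = 5). All 4 groups overlapped. The largest difference against chow novirus was 0.11 on the log2 scale in HFD Renin (95% interval -0.09 to 0.32, adjusted p = 0.525). The lowest library was again HFD novirus replicate 6, at 169.9 CPM, against 205.9 CPM or more elsewhere.

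Cd36, the main fatty acid translocase of heart muscle (chr5:17781690-17888801, minus strand), was higher in CPM in HFD novirus than in any chow novirus heart. The 4 chow novirus hearts measured 1272, 1312, 1131 and 1285 CPM. HFD novirus hearts ranged from 1376 to 1620 with a median of 1523 CPM, and HFD Renin hearts measured 1351, 1316, 1392, 1459 and 1376 CPM. In CPM both HFD groups lay above all 4 controls, though the lowest HFD Renin heart exceeded the highest control only narrowly. In TPM the HFD novirus hearts, from 461.2 upward, overlapped the controls, which reached 493.9. Chow Renin hearts ranged from 1135 to 1502 with a median of 1173 CPM, and 1 library, replicate 6, set the upper end.
The difference of HFD novirus from chow novirus was 0.27 on the log2 scale (SE 0.08, 95% interval 0.11 to 0.43) with an adjusted p of 0.181 in edgeR. DESeq2 gave 0.28 with an adjusted p of 0.0485. HFD Renin differed from chow novirus by 0.14 (adjusted p = 0.295) and from chow Renin by 0.17 (adjusted p = 0.0905). Without chow Renin replicate 6 the latter was 0.24 with an adjusted p of 0.00714. For higher values without overlap, the share over all genes was 1.06% in HFD novirus against chow novirus and 4.98% in HFD Renin against chow novirus.

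Slc27a1, which encodes the transport protein FATP1 (chr8:71568882-71587302, plus strand), had the largest called change of the 9 genes. Its promoter is printed here because the gene's libraries fell apart within 1 group. The window holds the 250 bases before the RefSeq start on chr8 (GRCm38.p6, plus strand, chr8:71568621-71568870). It lies outside all annotated exons, and starts within 60 bases of it carry 61.2% of the gene's TPM. Capitals would mark motif matches, and there are none in this window. RefSeq gives 2 further starts of the gene, with no quantified transcript starting within 60 bases of either. The window before one holds 1 GC box, at -139 from its start, and the window before the other holds an E-box at -202 and 3 GC boxes.
Slc27a1 window: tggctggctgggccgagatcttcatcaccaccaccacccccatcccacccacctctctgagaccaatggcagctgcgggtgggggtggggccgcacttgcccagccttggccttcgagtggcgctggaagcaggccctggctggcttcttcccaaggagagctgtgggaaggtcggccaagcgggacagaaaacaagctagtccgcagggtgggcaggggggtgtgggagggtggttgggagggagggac
Its GC content is 66.4%, against a median of 52.4% over 32851 windows of the same length. The motifs searched on both strands were the PPAR response element (a direct repeat of AGGTCA with 1 base between the copies), its half-site AGGTCA alone, CACGTG (the E-box bound by clock proteins), TTATGTAA (the D-box bound by Dbp, Tef and Hlf), TATAAA and GGGCGG (the GC box). They are present in 0.0335%, 14.0%, 6.02%, 0.819%, 12.4% and 32.7% of all windows, and every match of the repeat also holds the half-site. No match says only that these letters are absent from this window.

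The 4 chow novirus hearts measured 220.0, 219.2, 226.2 and 268.7 CPM of Slc27a1. Chow Renin hearts ranged from 207.3 to 266.9 with a median of 233.1 CPM, and HFD novirus hearts from 266.3 to 323.3 with a median of 285.4 CPM. The 5 HFD Renin hearts measured 118.2, 149.2, 236.4, 243.2 and 138.4 CPM. In CPM all HFD Renin values lay below all HFD novirus values, while in TPM the highest HFD Renin value, 104.5, lay above the lowest HFD novirus value, 101.7. In CPM replicates 3 and 4 lay within the range of both chow groups while replicates 1, 2 and 5 lay far below it.
Slc27a1 fell by 0.71 on the log2 scale in HFD Renin against HFD novirus (SE 0.15, 95% interval -1.01 to -0.40, 0.613-fold, edgeR adjusted p = 0.00496). Lower values without overlap were found for 1.52% of all genes in that comparison. This call was kept in all 11 fits that left out 1 library, with values from -0.85 to -0.60. Against chow Renin the gene fell by 0.41 (SE 0.15, adjusted p = 0.04997), a call kept in 4 of 11 such fits, with an adjusted p as high as 0.139. Against chow novirus the difference was -0.40 (adjusted p = 0.130), and it passed without HFD Renin replicate 3 (-0.53, adjusted p = 0.0343) or replicate 4 (-0.54, adjusted p = 0.0217). In HFD novirus against chow novirus it was 0.31 (adjusted p = 0.479), and in chow Renin against chow novirus 0.0059 (adjusted p = 0.988).
The renin effect on HFD minus that on chow was -0.71 for Slc27a1 (SE 0.21, 95% interval -1.16 to -0.27, adjusted p = 0.0347). That call was kept in 11 of 21 fits without 1 library, with an adjusted p of at most 0.0748. Without the atrial libraries the value was -0.84 (adjusted p = 0.0448), and when HFD novirus replicate 6 was left out as well it was -0.80 (adjusted p = 0.0882).

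The level of clock genes varied beside Slc27a1. A clock score was taken as the mean log2 CPM of 5 genes that peak with Arntl minus that of 10 genes such as Per1, Dbp and Ciart that peak at the opposite phase. HFD Renin replicates 1, 2 and 5, the 3 lowest in Slc27a1, had the highest scores of all 21 libraries at -2.22, -2.85 and -2.82, while replicates 3 and 4 had -3.23 and -3.21. Scores lay between -3.70 and -3.39 in chow novirus, between -3.22 and -2.87 in chow Renin and between -3.48 and -3.14 in HFD novirus, so neither novirus group overlapped the 3 libraries. The next highest score, -2.87, belonged to chow Renin replicate 1, which held 216.5 CPM of Slc27a1. Deviations from the group means gave Pearson r = -0.748 between Slc27a1 and the score (n = 21, permutation p = 0.0114, adjusted 0.117 over 36 relations) and Spearman rho = -0.452 (p = 0.0906, adjusted 0.319). Without the 2 libraries farthest from the median r was -0.514. With the score as a covariate, Slc27a1 differed by -0.39 between HFD Renin and HFD novirus (adjusted p = 0.247), by 0.14 between HFD Renin and chow novirus (adjusted p = 0.872) and by 0.44 between chow Renin and chow novirus (adjusted p = 0.0351). The difference between the renin effects was then -0.84 for Slc27a1 (adjusted p = 0.000242), and that between HFD Renin and chow Renin -0.30 (adjusted p = 0.0405). Group means of the score were -3.555 in chow novirus, -3.05 in chow Renin, -3.296 in HFD novirus and -2.866 in HFD Renin. No comparison of the score passed adjustment over 55 score tests (exact permutation). The adjusted p was 0.0952 for each group against chow novirus and 0.119 for HFD Renin against HFD novirus. It was 0.730 for HFD Renin against chow Renin. Because these means lie apart, the treatment and the score cannot be told apart for Slc27a1.

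**Figure D3:**
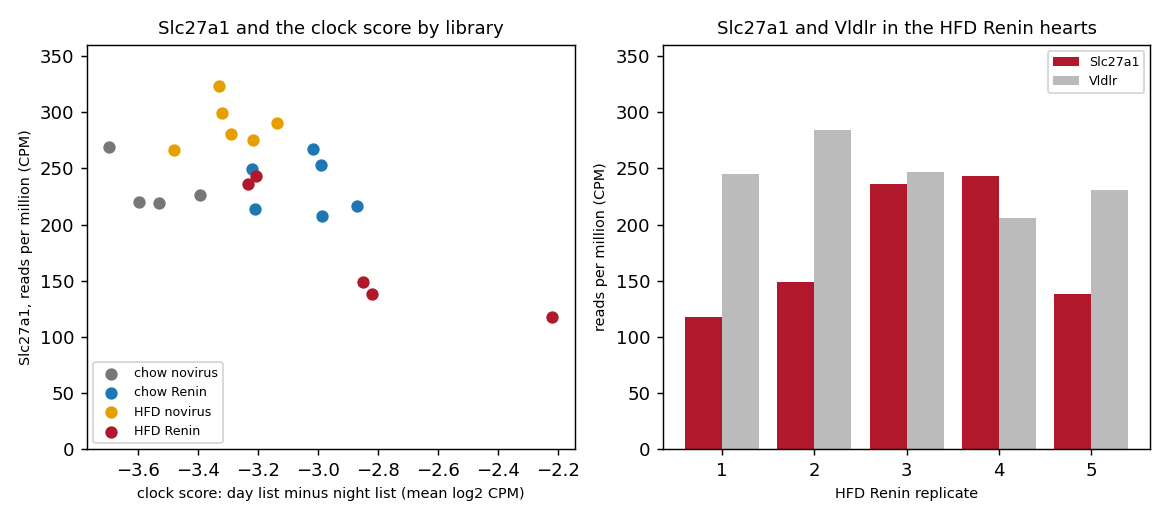
Left, Slc27a1 in CPM against the clock score of each of the 21 libraries, coloured by group. Right, Slc27a1 (red bars) and Vldlr (grey bars) in CPM in the 5 HFD Renin replicates. Replicates 1, 2 and 5 hold 118.2, 149.2 and 138.4 CPM of Slc27a1, while Vldlr in the same libraries lies between 231.1 and 283.8 CPM.

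Acsl1, the main long-chain acyl-CoA synthetase of heart muscle (chr8:46471037-46536051, plus strand), did not pass in any comparison. Chow novirus hearts measured 928, 865, 754 and 855 CPM, and HFD Renin hearts 844, 798, 848, 859 and 800.3 CPM. Chow Renin hearts ranged from 689 to 919.7 with a median of 714 CPM, and HFD novirus hearts from 592 to 941 with a median of 893 CPM. The groups overlapped throughout. The largest difference against chow novirus was -0.19 in chow Renin (95% interval -0.40 to 0.02, adjusted p = 0.262).
The gene is read from 2 start sites that lie 19929 bases apart on chromosome 8, and both windows of 250 bases before them are shown because the starts behaved differently in 1 heart. The upstream window (GRCm38.p6, plus strand, chr8:46470787-46471036) lies outside annotated exons, and starts next to it carry 56.3% of the gene's TPM. The downstream window (chr8:46490716-46490965) lies in introns of 5 annotated Acsl1 transcripts, and starts next to it carry 41.7%. Capitals mark the GC box GGGCGG, the one motif of those searched that was found.
Acsl1 upstream window: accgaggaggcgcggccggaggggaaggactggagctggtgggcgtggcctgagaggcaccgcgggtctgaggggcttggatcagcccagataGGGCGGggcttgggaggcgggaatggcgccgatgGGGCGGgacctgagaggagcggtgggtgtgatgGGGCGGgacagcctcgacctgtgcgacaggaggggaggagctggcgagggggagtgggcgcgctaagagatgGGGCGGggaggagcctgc
Acsl1 downstream window: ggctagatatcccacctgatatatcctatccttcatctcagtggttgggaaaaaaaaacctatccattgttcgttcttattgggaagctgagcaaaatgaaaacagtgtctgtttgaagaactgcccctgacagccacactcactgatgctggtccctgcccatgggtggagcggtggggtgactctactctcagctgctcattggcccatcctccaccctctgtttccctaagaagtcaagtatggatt
The upstream window has a GC content of 72.0% and 4 GC boxes that begin 157, 123, 90 and 18 bases before the start, while the downstream window has a GC content of 48.4% and none. Acsl1-201, the main transcript of the upstream start, lay between 91.5 and 120 TPM in all 21 libraries. Acsl1-203, the main transcript of the downstream start, lay between 65.8 and 107 TPM in 20 libraries and at 16.4 TPM in HFD novirus replicate 6. The ratio of Acsl1-203 to Acsl1-201 was 0.148 there and between 0.628 and 1.04 elsewhere. The lower Acsl1 level of that heart, 592 CPM, stood beside an Acsl1-201 level within the range of the rest. Cd36-205, which held 18.3% of Cd36 on average, was also lowest in that library, at 28.7 TPM against 64.6 TPM or more in the others. Salmon divides reads between transcripts by estimate, so these values are less certain than gene totals.

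**Figure D4:**
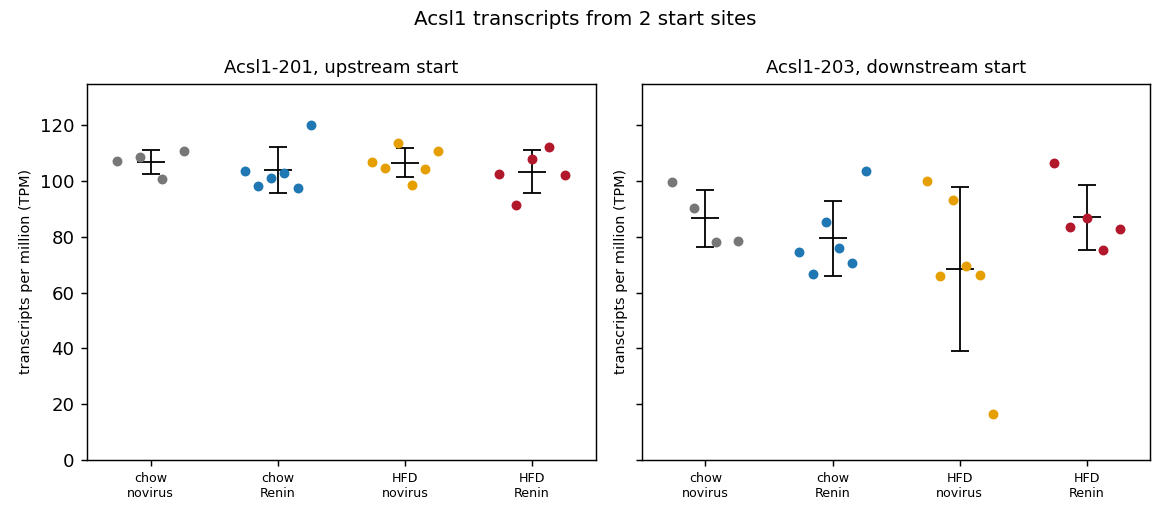
Level of Acsl1-201 (left) and Acsl1-203 (right) in TPM (linear axis from 0) in each heart, with the group mean and 1 SD. The single low point on the right, 16.4 TPM, is HFD novirus replicate 6, whose Acsl1-201 value is not set apart.

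Fabp3, the muscle carrier (chr4:130308595-130315463, plus strand), was higher in both HFD groups than in chow novirus. The 4 chow novirus hearts measured 2000, 2026, 1814 and 2014 CPM. Chow Renin hearts ranged from 1873 to 2272 with a median of 1978 CPM. HFD novirus hearts ranged from 2069 to 3010 with a median of 2620 CPM, and the HFD Renin hearts measured 2665, 2906, 2586, 2599 and 2653 CPM. Every HFD Renin heart lay above every chow heart, in CPM and in TPM. Every HFD novirus heart lay above every chow novirus heart in CPM, narrowly at its lowest, but in TPM the lowest, at 2920, lay below the highest control, at 3104.
Fabp3 rose by 0.45 on the log2 scale in HFD Renin against chow novirus (SE 0.09, 95% interval 0.27 to 0.63, 1.37-fold, edgeR adjusted p = 0.00318). It rose by 0.41 against chow Renin (SE 0.08, 1.33-fold, adjusted p = 0.000371). The call against chow novirus was kept in all 9 fits without 1 library, with values from 0.41 to 0.46, and the call against chow Renin in all 11. Higher values without overlap were found for 5.55% of all genes in the latter comparison. With the clock score as a covariate the value against chow novirus was 0.36 with an adjusted p of 0.559, a fit in which no gene at all was called. HFD novirus differed from chow novirus by 0.38 (SE 0.08, adjusted p = 0.0962), and DESeq2 called this difference (0.38, adjusted p = 0.00446). HFD Renin differed from HFD novirus by 0.07 (95% interval -0.09 to 0.23, adjusted p = 0.623), and on chow the renin difference was 0.03 (95% interval -0.14 to 0.21, adjusted p = 0.859). The overlapping antisense gene Zcchc17 held 0.306% as many reads as Fabp3, and the pseudogene Fabp3-ps1 0.0228%.

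Fabp4 and Fabp5, the carriers of fat cells and endothelium, gave no difference that passed with edgeR. Fabp4 measured 335 ± 23.9 CPM in chow novirus, 346 ± 35.4 in chow Renin, 391 ± 87.9 in HFD novirus and 357 ± 28.9 in HFD Renin. Fabp5 measured 23.2 ± 2.12, 21.8 ± 2.83, 26.4 ± 5.42 and 24.9 ± 3.05 CPM in the same order. In both genes HFD novirus replicate 6 stood far above the rest, at 560 CPM for Fabp4 and 37.2 CPM for Fabp5, and it set the wide spread of its group. The 95% interval for HFD Renin against chow novirus was -0.16 to 0.34 for Fabp4 and -0.16 to 0.37 for Fabp5.
Their levels were compared with the capillary endothelium score. Over deviations from the group means, Fabp4 gave Pearson r = 0.807 with the score (n = 21, permutation p = 0.00191, adjusted 0.0688 over 36 relations) and Spearman rho = 0.627 (p = 0.00399, adjusted 0.144). Without the 2 libraries farthest from the median r was 0.465. Fabp5 gave r = 0.714 (permutation p = 0.0130, adjusted 0.117) and rho = 0.539 (p = 0.0196, adjusted 0.176), and 0.507 without those libraries. Gpihbp1 gave r = 0.681 (permutation p = 0.00631, adjusted 0.114) and rho = 0.545 (p = 0.0180, adjusted 0.176), and 0.413 without them. None of the 3 passed after adjustment. Without HFD novirus replicate 6 alone, r was 0.592 for Fabp4, 0.467 for Fabp5 and 0.485 for Gpihbp1. The group means behind these values still included that library, so its influence was not fully removed.

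**Figure D5:**
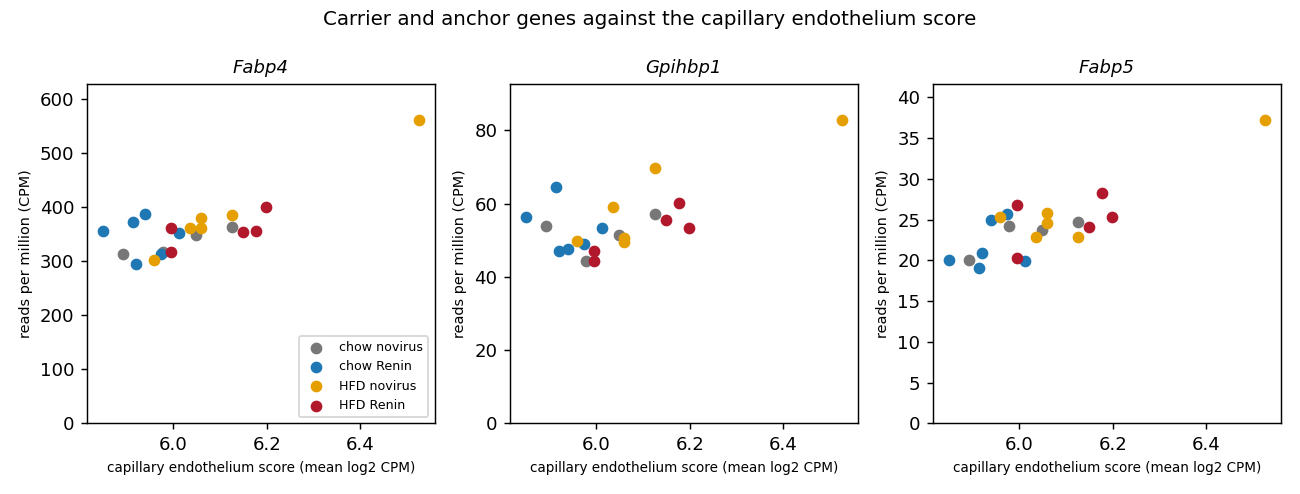
Fabp4, Gpihbp1 and Fabp5 in CPM (from 0) against the capillary endothelium score (mean log2 CPM of 15 markers), 1 point per library, coloured by group. The point at a score of 6.53 in each panel is HFD novirus replicate 6, at 560, 82.8 and 37.2 CPM.

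Among the 36 pairs of members, deviations from the group means were most alike for Acsl1 and Cd36. They gave Pearson r = 0.702 (n = 21, permutation p = 0.00260, adjusted 0.0551) and Spearman rho = 0.762 (p = 0.000600, adjusted 0.0216), and r = 0.697 without the 2 farthest libraries. Fabp4 and Gpihbp1 gave the same r of 0.702 (permutation p = 0.00306, adjusted 0.0551), with rho = 0.577 (p = 0.00962, adjusted 0.110), and r = 0.459 without the 2 farthest libraries. By Pearson r over all 21 libraries the most inverse pair was Acsl1 and Fabp4, with r = -0.712 (permutation p = 0.0231, adjusted 0.163) and rho = -0.558 (p = 0.0176, adjusted 0.114), and r = -0.383 without the 2 farthest libraries. Other pairs were more inverse by other measures, with rho = -0.569 for Lpl and Slc27a1 and, without the 2 farthest libraries, r = -0.579 for Gpihbp1 and Slc27a1.

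Each member's closest patterns were sought among 10053 other genes with a mean of at least 5 CPM, by Pearson r of log2 CPM over all 21 libraries. After group means were removed, r of the genes named here lay between 0.743 (Pecam1 with Fabp5) and 0.940 (Ces1d with Slc27a1). These are descriptions, since the highest of many values is taken and the points share group and library. Slc27a1 was most like Ces1d (r = 0.970), Lgals4 (0.958) and Pink1 (0.953). Lpl was most like Ripor2 (0.950), Doc2g (0.851) and the ventricular light chain Myl3 (0.849). Cd36 was most like Cpt1b, which encodes the muscle carnitine palmitoyltransferase (0.925), and the fatty acid oxidation gene Decr1 (0.917), with Ephx2 at 0.915. Fabp3 was most like the lipid droplet gene Cidea (0.928), Pfkl (0.922) and Me1, the cytosolic malic enzyme (0.899). Acsl1 was most like Pkia (0.907), Sgcb (0.905) and the ryanodine receptor Ryr2 (0.897), and the genes like Vldlr included Mgea5 (0.862) and Txlnb (0.846). Gpihbp1 was most like Adgrg1 (0.909), Sema6b (0.827) and Adap2 (0.812). Fabp4 was most like Cd300lg (0.870), Sema3g (0.847) and Prag1 (0.836), and Fabp5 most like Arhgap29 (0.837), the endothelial adhesion gene Pecam1 (0.813) and Rhog (0.811).

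The wider pathway was described with lists of related genes. In HFD Renin against chow novirus, 3 of 26 tested genes of uptake and activation outside the 9 members fell and none rose with edgeR, while DESeq2 called 4 lower and none higher. Over all 15216 genes, 646 fell and 616 rose with edgeR (8.29% in all), DESeq2 called 1622, and with the clock score as a covariate no gene was called (1210 with an unadjusted p under 0.05), so none of the list calls in this comparison held there. The 3 were Acss1 (-0.41), Got2 (-0.28) and Acot7 (-0.27), and the median of the 26 was 0.06, against 0.01 over all genes tested. Of 15 genes that control lipoprotein breakdown, Lrp8, a receptor related to Vldlr, rose by 1.37 (adjusted p = 0.00274) and Sdc4 fell by 0.48, with a median of -0.03. Of 22 lipid storage genes, Cidea rose by 0.54, while G0s2, an inhibitor of triglyceride breakdown (-0.56), Dgat2, an enzyme of triglyceride synthesis (-0.53), and Fitm1 (-0.40) fell. Of 21 PPAR target genes, Ehhadh (-0.60) and Mlycd (-0.26) fell, with a median of 0.03, and Mlycd was also the single call among 9 genes of the carnitine shuttle (median -0.15). No call was made by edgeR among 15 PPAR regulators (2 with an unadjusted p under 0.05, 0 by DESeq2) or among 11 genes that govern endothelial fatty acid transport (3 unadjusted, 1 lower by DESeq2).

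Where Slc27a1 fell, in HFD Renin against HFD novirus, the called genes of lipid storage and the called PPAR targets were all lower. Over all 15216 genes, 773 fell and 923 rose (11.1% in all), 4026 had an unadjusted p under 0.05, and 15 were called with the clock score as a covariate. Of 10 cardiomyocyte markers 5 fell, from Tnni3 (-0.53) and Tnnt2 (-0.39) to Pln (-0.27), and Mybpc3 (0.43) and Ttn (0.28) rose. The part of these markers in the list values was not tested. Of 22 lipid storage genes 6 fell, led by G0s2 (-0.63), Fitm1 (-0.51), Lipe, the hormone-sensitive lipase (-0.41), and the droplet protein gene Plin5 (-0.36). None rose with edgeR or DESeq2 (13 of 22 had an unadjusted p under 0.05), and the median was -0.21, against -0.0064 over all genes. Of 21 PPAR targets 4 fell and none rose with edgeR or DESeq2 (8 of 21 had an unadjusted p under 0.05). These were Acaa2 (-0.52), Plin5 (-0.36), Acadvl (-0.33) and Mlycd (-0.30), and 18 of the 21 had a negative value (median -0.27). Rxra (-0.31) and Esrra (-0.25) fell among 15 PPAR regulators. Of the 26 other genes of uptake and activation 3 rose and 3 fell, the largest being Acsl6 (-0.58), Acss1 (-0.33), Acss2 (0.27) and Acbd3 (0.24). Lrp8 rose by 1.80 (adjusted p = 0.000203), and Vegfb, a growth factor that acts on endothelial fatty acid uptake, fell by 0.38.

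In chow Renin against chow novirus, where no member passed, 4 of the 26 other genes of uptake and activation rose and none fell with edgeR or DESeq2. Over all genes 13.5% were called there, 1537 higher and 511 lower, so this count is near the background. The 4 were Mfsd2a, a lipid transporter of the blood-brain barrier (2.69, with group means of at most 0.522 CPM), Acsbg1, known as the bubblegum acyl-CoA synthetase of brain (1.95), Acsl3 (0.74) and Acsl4 (0.51). Of 15 genes of lipoprotein breakdown 5 rose and 2 fell, led by Lrp8 (1.53), the endothelial lipase gene Lipg (1.49) and Sdc1 (1.09). Levels were low for Lipg, with group means of at most 1.64 CPM, and for Lrp8, with at most 4.56 CPM. In the same comparison 10 of 11 central nervous markers rose, and their summed level was 268 to 445 CPM in chow Renin against 85.2 to 92.2 CPM in chow novirus. Their part in these 2 lists was not tested.

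None of these lists held a call with edgeR in HFD novirus against chow novirus, with 0 to 13 genes per list at an unadjusted p under 0.05 and at most 2 calls by DESeq2. Among 21 PPAR targets 19 had a positive value, 13 had an unadjusted p under 0.05 and DESeq2 called 2. Their median was 0.24, against 0.0089 over all genes. Of 10 cardiomyocyte markers 9 had a negative value there, while all 11 central nervous and all 6 fibroblast markers had a positive one. None of these markers was called with edgeR. Mitochondrial reads made up 33.7% to 38.2% in HFD novirus and 32.3% to 33.9% in chow novirus. The part of these in the PPAR target values was not tested. Against chow Renin, in HFD Renin hearts, Mfsd2a (-2.62), Fabp7 (-2.01), Acsbg1 (-1.83) and Acsl4 (-0.71) led 7 of 26 genes that fell, and 4 rose. Over all genes 22.6% were called there, 1949 lower and 1491 higher. Mfsd2a and Fabp7 were near the floor, with group means of at most 0.522 and 0.7245 CPM. In this comparison 10 of 11 central nervous markers fell, to a summed level of 76.4 to 138 CPM in HFD Renin, and their part in the list was not tested. Of 11 genes that govern endothelial fatty acid transport, Aplnr (0.82), Nrp1 (0.43) and Flt1, a receptor of Vegfb (0.31), rose, and so did 4 of 15 capillary endothelium markers, led by Kdr (0.53) and Emcn (0.40). Both counts are near the share of all genes called. All 6 fibroblast markers had positive values there (median 0.55), of which Col3a1 rose (1.08), and their summed level was 745.5 to 1172 CPM in HFD Renin against 478.9 to 707.7 CPM in chow Renin. The part of endothelial and fibroblast shares in these values was not tested. The renin effect differed between the diets, as HFD minus chow, for 7 of the 26 genes, 5 of them negative, led by Mfsd2a (-3.38), Acsbg1 (-2.19), Acsl3 (-0.90) and Acsl6 (-0.89). Over all genes 10.4% were called for that difference, 1111 negative and 478 positive. Among them were 10 of 11 central nervous markers, all negative (median of the 11 -2.48), and their part in the 7 calls was not tested.

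A further value comes from the authors' deposited table, whose single comparison is headed as HFD with virus and names no reference group. In the authors' deposited table Fabp3 has a log2 fold change of 0.38 with an adjusted p of 9.07e-05 and Lpl one of -0.26 with an adjusted p of 0.0239. The other 7 members have adjusted p-values from 0.0946 (Slc27a1, -0.21) upward in the authors' deposited table.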

How the data were processed

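Whole-heart total RNA was sequenced from 21 mice in 4 groups taken from the sample titles. The authors' files give 1 table per library, quantified with Salmon 1.10.2 on GRCm38 per the submitters' processing notes. Per the file headers these deposited tables hold estimated counts and TPM per transcript. A second deposited file is the authors' gene matrix of normalized signal per library, with 1 set of log2 fold changes and adjusted p-values. The notes also name DESeq2 1.40.2. Estimated counts were summed to genes through GENCODE M21 (0.854% to 0.925% of reads matched no gene and were left out) and rounded. Genes passing filterByExpr (15216) were normalized by TMM and tested in 1 edgeR 4.0.16 quasi-likelihood fit over all 21 libraries, with Benjamini-Hochberg adjustment over all genes and a threshold of 0.05. CPM is scaled to the TMM-adjusted library. p-values measure the spread between animals, 1 library each. Promoter sequences are from RefSeq on GRCm38.p6, where 5 of the 9 members had a window. The members and lists were chosen with earlier results of these data known. All 9 members are named, of each other list at most the 4 largest called changes per comparison, and for each member up to 3 genes with the most similar profile, and some items under this rule are not reported here. Cardiomyocyte, nervous, endothelial and fibroblast markers, mitochondrial reads and single transcripts are named beside results after their values were seen. Scores are means of log2 CPM with a prior count of 2. Correlations used 100000 permutations within groups. Where libraries were left out of a correlation, deviations were still taken from group means that included them. The farthest libraries were judged on the score alone, or on the first-named member of a pair. Counts were simulated for HFD Renin against chow novirus (15000 genes tested), with independent noise per gene. The test recovered 83.8% of 99 genes changed by a log2 of 1 and 29.6% of 98 changed by 0.4. Unchanged genes made up 3.45% of calls. The real comparison called 1262 genes, and the simulation held no structure shared between genes, so these rates need not hold in the data. Alternatives were DESeq2 1.42.0, upper-quartile scaling, no filter, a replicate block, thinning to the smallest library, the clock score as covariate, limma 3.58.1 on the deposited signal as log2(signal + 1), each library left out, and, chosen after seeing the data, the atrial libraries left out with or without HFD novirus replicate 6. No 2 libraries of a group agreed within sampling noise (chi-square per gene of 3.51 or more over 46 pairs).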

Additional observations from a re-analysis of the deposited data

Results flagged for a closer look

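Of 60 sets of group values for the 9 genes and 6 of their transcripts, 12 had a highest or lowest library set far apart from its group. For independent sets chance flags about 1 in 20, or 3 of these. These sets are not independent, because transcripts were counted beside their own genes. The transcripts were also picked by their highest share in any library, so the 12 cannot be set against the 3. Most of the 12 belong to 2 hearts. Chow Renin replicate 6 was set apart upward in Acsl1 (919.7 CPM), Cd36 (1502 CPM), Acsl1-201 (120.1 TPM), Cd36-203 (258.7 TPM) and Cd36-205 (137.1 TPM). HFD novirus replicate 6 was set apart downward in Acsl1 (591.6 CPM) and upward in Fabp4 (560.3 CPM) and Fabp5 (37.22 CPM). The others were Fabp3 in chow novirus replicate 3, which was low at 1814 CPM, and in HFD Renin replicate 2, which was high at 2906 CPM. Slc27a1 was high in chow novirus replicate 4, at 268.7 CPM, and Lpl-203 in HFD Renin replicate 1, at 49.58 TPM. The renin effect on Slc27a1 differed between the diets by -0.71 on the log2 scale (edgeR adjusted p = 0.0347 for the difference itself). The cause of these values was not tested.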

How the results depend on the processing

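The calls for Fabp3 held in all alternatives except the clock covariate in HFD Renin against chow novirus, and the call for Slc27a1 in HFD Renin against HFD novirus in all except that covariate. HFD Renin against chow novirus had 2 members called, 0 with the clock score and 1 to 2 when libraries were left out in turn. In chow Renin against chow novirus 0 were called and 1 with the clock score. In HFD novirus against chow novirus 0 were called, 2 with DESeq2 and 0 to 1 with libraries left out (Fabp3 without HFD novirus replicate 4, adjusted p = 0.0160). HFD Renin against HFD novirus had 1 called, and 0 with the clock score. HFD Renin against chow Renin had 3 called, and 1 to 3 with libraries left out. There Slc27a1 missed the threshold with no filter (adjusted p = 0.0848) and after thinning (0.0505), and Lpl with limma (0.0640) and with the clock score (0.0618). For the difference between the renin effects 1 was called, 0 with no filter on low counts (Slc27a1, adjusted p = 0.0687), 0 without the atrial libraries and HFD novirus replicate 6, and 0 to 1 with libraries left out. The cause of these shifts was not tested. With upper-quartile scaling the share of calls that were higher moved from 75.0% to 86.0% in chow Renin against chow novirus, from 43.3% to 27.3% in HFD Renin against chow Renin and from 30.1% to 18.97% for the difference. Over all genes, HFD novirus against chow novirus gave 10 calls, 117 with DESeq2, 17 with the clock score, 6 after thinning, and 0 with the replicate block or without the atrial libraries. HFD Renin against chow novirus gave 1262, and 0 with the clock score, and HFD Renin against HFD novirus gave 1696, and 15 with it. Limma on the deposited signal gave 759 for chow Renin against chow novirus in place of 2048, 1600 for HFD Renin against chow Renin in place of 3440 and 577 for the difference in place of 1589. The labels do not say what the replicate numbers stand for, and the main fit did not pair by them. Of 21 libraries, 7 correlated best with their own number. Mean r was 0.0924 between libraries of the same number and -0.0187 between others. Replicate 3 was high in atrial transcripts in all 4 groups. Under the replicate block Fabp5 was 0.28 in HFD Renin against chow Renin (adjusted p = 0.0325), with 4 members called there in place of 3. Signs reversed in 84 values of 21 results, none of them called, with a size of at most 0.16 on the log2 scale. With DESeq2 these were Fabp5 at -0.0042 in the difference between the renin effects. With upper-quartile scaling these were Gpihbp1 at -0.012 in HFD Renin against chow novirus, Cd36 at 0.0011 in chow Renin against chow novirus, Vldlr at -0.028 and Fabp4 at -0.0066 in HFD Renin against chow Renin. Further values there were Fabp3 at -0.017 and Fabp5 at -0.047 in the difference between the renin effects. With the replicate block these were Fabp3 at -0.017, Slc27a1 at -0.0040, Fabp4 at -0.013 and Gpihbp1 at -0.0074 in chow Renin against chow novirus, Fabp5 at 0.0081 in HFD Renin against HFD novirus, Vldlr at -0.0051 and Gpihbp1 at 0.0086 in HFD Renin against chow Renin. After thinning these were Gpihbp1 at -0.0062 in HFD Renin against chow novirus, Fabp5 at -0.0038 in the difference between the renin effects. With the clock score these were Slc27a1 at 0.14, Fabp5 at -0.055 and Gpihbp1 at -0.16 in HFD Renin against chow novirus, Fabp3 at -0.031 and Gpihbp1 at -0.083 in chow Renin against chow novirus. With limma on the deposited signal these were Acsl1 at 0.0052 in HFD Renin against HFD novirus. Without the atrial libraries these were Gpihbp1 at -0.019 in HFD Renin against chow novirus, Vldlr at -0.043 in HFD Renin against chow Renin, Fabp3 at -0.011 and Fabp5 at -0.024 in the difference between the renin effects. Without these and HFD novirus replicate 6 these were Gpihbp1 at -0.019 in HFD Renin against chow novirus, Acsl1 at 0.0091 in HFD novirus against chow novirus, Vldlr at -0.064 and Fabp5 at 0.11 in HFD Renin against HFD novirus. Further values there were Vldlr at -0.043 in HFD Renin against chow Renin, Fabp3 at -0.0014 in the difference between the renin effects. With each library left out in turn, results that changed sign had these ranges. For HFD Renin against chow novirus Acsl1 ran from -0.088 to 0.0026 and Gpihbp1 ran from -0.057 to 0.063. For chow Renin against chow novirus Cd36 ran from -0.098 to 0.0037, Fabp3 ran from -0.0026 to 0.069, Gpihbp1 ran from -0.030 to 0.095 and Slc27a1 ran from -0.034 to 0.080. For HFD novirus against chow novirus Acsl1 ran from -0.068 to 0.068. For HFD Renin against HFD novirus Acsl1 ran from -0.10 to 0.015, Fabp4 ran from -0.20 to 5.3e-05, Fabp5 ran from -0.14 to 0.038 and Vldlr ran from -0.023 to 0.11. For HFD Renin against chow Renin Fabp4 ran from -0.020 to 0.088, Gpihbp1 ran from -0.11 to 0.037 and Vldlr ran from -0.035 to 0.081. For the difference between the renin effects Fabp3 ran from -0.019 to 0.087, Fabp5 ran from -0.057 to 0.13, Lpl ran from -0.12 to 0.033 and Vldlr ran from -0.11 to 0.019.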
